A study of Mus musculus with 6 samples.

Results

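Imprinted genes with known effects on growth, 10 in number, were followed through irradiated fibroblasts treated with exosomes or with saline. The members were chosen by name, as rows of the deposited table carrying the symbols Igf2, H19, Dlk1, Peg3, Mest, Plagl1, Grb10, Ndn, Gnas and Sgce. Of these 10 genes, 9 had a row among the 21878 genes of the table, and H19 was not analysed here. All libraries came from NIH3T3, a mouse fibroblast line that grows without limit in culture, with a radiation injury per the labels. The exosomes group (3 libraries) received plasma-derived exosomes, which are small membrane vesicles shed by cells, and the PBS group (3 libraries) phosphate-buffered saline. Both groups were taken at 72 h. The labels give neither the radiation dose nor the species of the plasma. They do not tie replicates to separate cultures, so a p-value here reflects only how these 6 libraries vary, and that variation could be technical. An unirradiated group was not analysed here.

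Imprinted genes are transcribed mainly from the copy inherited from one parent, a choice set by DNA methylation laid down in the germ line. In broad terms, paternally expressed genes such as Igf2, Dlk1, Peg3 and Mest favour fetal growth, whereas maternally expressed genes such as H19 and Grb10 restrain it. Plagl1 encodes a zinc finger transcription factor that is placed at the head of a network of co-expressed imprinted genes, and many members are silenced or reduced in most tissues after birth. The libraries measure RNA from both parental copies together, so imprinting itself was not measured.

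Expression is given as FPKM, fragments per kilobase of transcript scaled to the mapped fragments of the library, which allows levels of different genes to be compared per length. The libraries held an estimated 18.8 to 22.0 M counted reads, and 10080 to 10271 genes reached 1 FPKM in each. The fibroblast label was borne out by the marker list: 11 of 11 fibroblast markers were detected, Vim, Col1a2 and S100a4 at the highest means, and their summed level was 6384 to 6785 FPKM with PBS and 7622 to 7899 with exosomes. In the test below, 6 of the 11 fibroblast markers were raised, 3 lowered (S100a4, Fn1 and Pdgfrb) and 2 not called (Vim and Thy1). Leukocyte markers summed to 3.54 to 4.90 FPKM with PBS and 1.88 to 2.60 with exosomes, with 1 of 7 at 0 throughout. Csf1r carried this difference (1.92 ± 1.24 and 0.295 ± 0.0752), while Cd68 was at 1.90 ± 0.641 and 1.81 ± 0.330. Adipocyte markers summed to 1.35 to 3.62 against 0.769 to 1.10, almost wholly Fabp4, with 2 of 7 at 0 throughout. Fabp4 was at 2.33 ± 1.15 and 0.87 ± 0.198 FPKM and was called lowered, a call that the authors' deposited table does not make. Platelet and red cell markers summed to 2.65 to 4.99 FPKM with PBS and 3.58 to 4.33 with exosomes, with 2 of 7 at 0 throughout. Among them Itga2b was at 1.90 ± 0.409 and 2.80 ± 0.116 and was called raised, while Ppbp was at 1.30 ± 0.668 and 0.880 ± 0.342 and untested. The part of these cell types in the results below was not tested. In such bulk samples fewer cells of a type and less RNA per cell cannot be told apart. The test was limma on log2(FPKM + 1) for genes reaching 1 FPKM in 3 libraries or more, and a gene was called raised or lowered at a Benjamini-Hochberg adjusted p under 0.05. Changes are exosomes over PBS, with standard errors (SE), and understate the change of genes with low values.

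The stretches upstream of the start sites of Plagl1, Mest and Dlk1 are shown because these were the members with the largest rises and the only lowered member, and CpG, the dinucleotide that carries imprinting marks, is in capitals. The sequences are from RefSeq (GRCm38.p6), on the strand of the gene. Each begins 250 bases before the start and ends at the start or before the first annotated exonic base of the gene. For Plagl1 only the 109 bases farthest from the start are thus shown, and the stretch does not reach the start. The Plagl1 stretch is chr10:13090582-13090690 on the plus strand, the Mest stretch chr6:30737800-30738049 on the plus strand and the Dlk1 stretch chr12:109452573-109452822 on the plus strand.
Plagl1: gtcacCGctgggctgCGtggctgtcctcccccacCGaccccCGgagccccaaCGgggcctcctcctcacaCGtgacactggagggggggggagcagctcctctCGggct
Mest: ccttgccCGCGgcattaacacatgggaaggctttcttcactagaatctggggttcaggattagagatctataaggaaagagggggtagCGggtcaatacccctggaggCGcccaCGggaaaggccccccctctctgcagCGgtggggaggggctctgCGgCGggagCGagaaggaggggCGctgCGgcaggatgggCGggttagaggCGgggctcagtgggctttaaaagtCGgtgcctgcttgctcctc
Dlk1: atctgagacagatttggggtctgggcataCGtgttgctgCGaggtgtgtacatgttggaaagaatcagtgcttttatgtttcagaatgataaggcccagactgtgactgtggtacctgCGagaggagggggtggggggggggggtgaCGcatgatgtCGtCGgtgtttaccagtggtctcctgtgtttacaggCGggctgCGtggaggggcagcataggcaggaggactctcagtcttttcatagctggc
The Plagl1 stretch holds 7 CpG in 109 bases, the Mest stretch 14 in 250 and the Dlk1 stretch 8 in 250. Over the full 300-base window of each start (250 bases before to 50 after), Plagl1 had 26 CpG, the 3 Mest starts 8, 17 and 17, and Dlk1 9, against a median of 7 and quartiles of 3 and 20 over 32851 promoters. Of the members, 8 had promoters in this set, 17 windows in all. CpG numbers ran from 2 to 24 over the starts of Igf2, from 16 to 40 over those of Gnas and were 9 and 45 at the starts of Grb10, 11 at Ndn and 13 at Peg3. Which start was used in these cells was not measured.

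The motif GGGGCCCC, which is its own reverse complement and is known as a binding sequence of Plagl1, was looked for in the same windows. It was present in 1 of the 17 windows of the members, that of Peg3, and in 1.08% of all promoters. A match is a description of the letters, not a bound site. Its context begins 11 bases before the motif, the first base of which lies 201 bases before the start, at chr7:6730602-6730631 on the minus strand, with the motif in capitals.
Peg3: gactctgcttgGGGGCCCCtaacactgact

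The levels of the 9 genes ranged from among the highest in these cells to a listed 0. In PBS libraries Dlk1, a transmembrane protein of the Notch ligand family that restrains adipocyte differentiation, had a mean of 572 ± 55.6 FPKM (SD, n = 3), and Igf2, the fetal growth factor, 235 ± 55.9. Averaged over the 6 libraries, Dlk1 was above 99.2% and Igf2 above 98.5% of the tested genes. Grb10, an adaptor that dampens insulin and IGF receptor signalling, followed at 103 ± 4.76 FPKM and Gnas, the stimulatory G protein alpha subunit, at 77.0 ± 2.11. Plagl1 (12.5 ± 2.84), Ndn (10.9 ± 1.38) and Peg3 (7.82 ± 1.11) made up a middle tier, and Mest stood at 0.227 ± 0.0926 FPKM. The order of the means was the same with exosomes. In PBS libraries the ranges of Plagl1 and Ndn overlapped, although Plagl1 was above Ndn in each of the 3 libraries, while all other neighbours in the order were separated in both groups. Sgce, the epsilon subunit of the sarcoglycan complex, was listed at 0 in all 6 libraries, as were 6374 genes of the table. A listed 0 may come from annotation or counting, so it was not read as absence of the transcript.

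**Figure D1:**
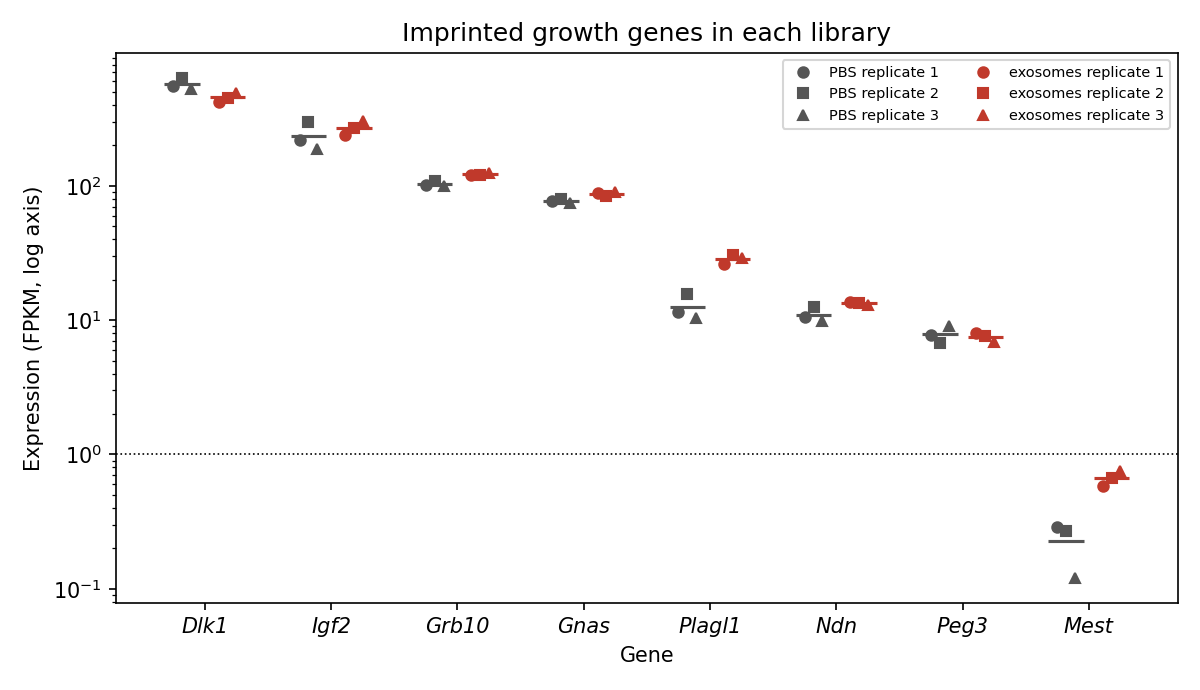
Expression of the 8 detected members in each library (FPKM, log axis), with grey symbols for PBS, red for exosomes, 1 symbol shape per replicate and a bar at the group mean. Levels run from Dlk1 at 572 FPKM with PBS to Mest at 0.227, the only one of the 8 below the dotted line at 1 FPKM, and Plagl1 and Mest show the widest gaps between groups.

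Of the 7 members that passed the filter on low values, 4 were raised with exosomes, 1 was lowered and 2 were not called, and all 7 passed in every library. Among all 10274 tested genes 43.8% were called, 25.4% raised and 18.4% lowered, or 2612 and 1889 genes. With median ratio scaling 2250 were raised and 2276 lowered. The median log2 change of the 7 genes was 0.22, against 0.04 for all tested genes. Exosome values lay wholly on 1 side of PBS values in 5 of the 7, against 55.6% of all tested genes. The members' share of calls, 71.4% of 7 genes, was not tested against that background. The median absolute log2 change of all called genes was 0.29, and among the called members Grb10, Ndn and Gnas were below it and Dlk1 and Plagl1 above it.

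**Figure D2:**
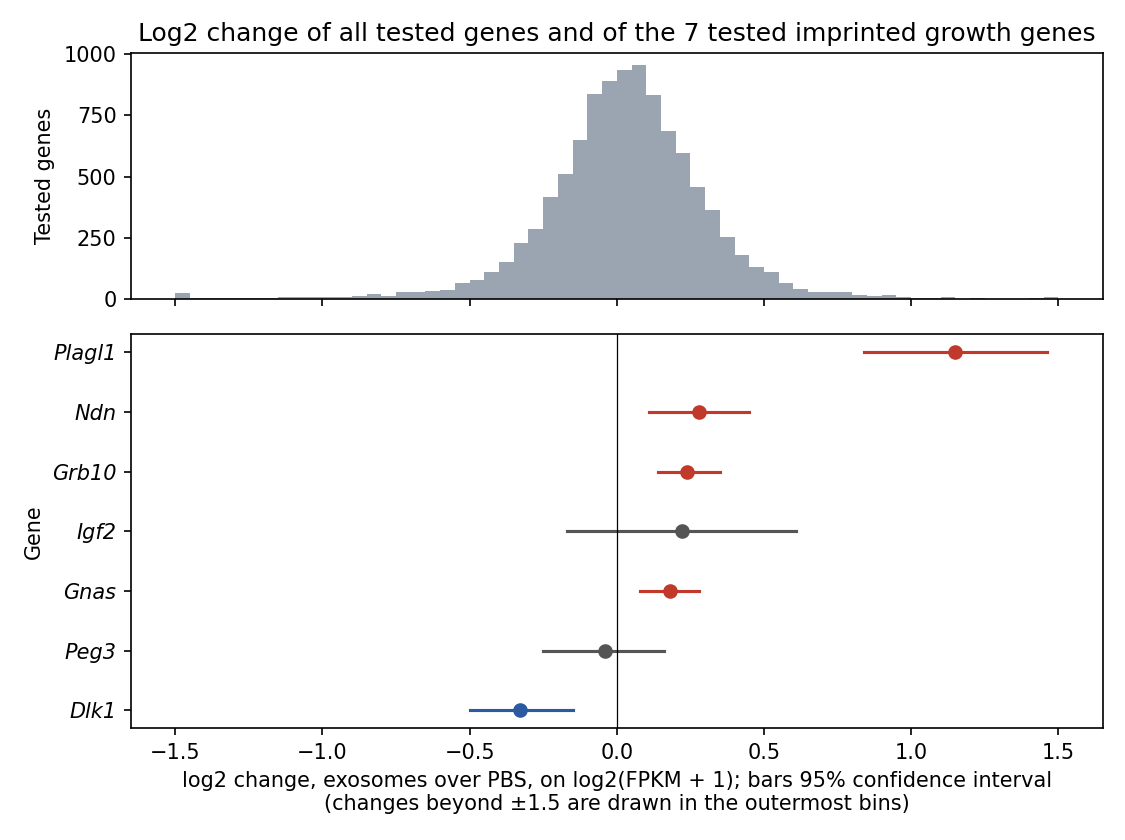
The upper panel shows the log2 changes of all 10274 tested genes as a histogram, and the lower panel those of the 7 tested members with 95% confidence intervals, red for raised, blue for lowered and grey for not called. Plagl1 at 1.15 lies in the right tail of the histogram, while the other 6 members fall between −0.33 and 0.28.

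Plagl1 more than doubled with exosomes. It was at 11.5, 15.7 and 10.3 FPKM in PBS replicates 1 to 3 and at 26.1, 30.7 and 29.2 in exosome replicates 1 to 3. Even the highest PBS library was well below the lowest exosome library. The means were 12.5 ± 2.84 and 28.7 ± 2.30 FPKM, a ratio of 2.29, and the log2 change was 1.15 ± 0.13 (95% interval 0.84 to 1.46, limma adjusted p = 0.000392), the 24th largest rise among tested genes. In the authors' deposited table the mean normalized count went from 1555 to 3482, a fold of 2.24 (adjusted p = 1.03e-12).

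Mest, which encodes a hydrolase-like protein of the endoplasmic reticulum and is abundant in embryonic mesenchyme, also had higher values with exosomes but at a very low level. It was listed at 0.290, 0.271 and 0.121 FPKM in PBS replicates 1 to 3 and at 0.578, 0.669 and 0.751 in exosome replicates 1 to 3. The groups did not overlap, and no library reached 1 FPKM, so Mest was not in the main test. The deposited group means could be taken apart into whole reads per library, which gave 22, 17 and 9 reads with PBS and 35, 51 and 49 with exosomes, 48 against 135 in total. The ratio of mean FPKM was 2.93. An exact two-sided permutation test over the libraries gave p = 0.10, the smallest that 3 against 3 allows. Groups that do not overlap always give this value, so it adds nothing to that description. Without the filter on low values Mest was called raised (log2 change 0.44 ± 0.07 on log2(FPKM + 1), limma adjusted p = 0.00503), and the authors' deposited table gives a fold of 2.59 (adjusted p = 0.000808).

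Mest shares 23.1% of its exonic bases with Copg2, a coatomer subunit gene on the opposite strand, in GENCODE M21. The deposited values were made on mm9, and in the annotation used there this overlap and those given below may differ. Copg2 stood at 12.9 ± 1.17 FPKM with PBS and 19.8 ± 1.13 with exosomes (log2 change 0.59 ± 0.07, limma adjusted p = 0.000183). Strand use in counting is not stated by the labels, and reads of the 2 genes over that stretch cannot be told apart without it.

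Dlk1 was the member that fell. It was at 554, 635 and 529 FPKM in PBS replicates 1 to 3 and at 421, 454 and 492 in exosome replicates 1 to 3. The highest exosome library, at 492, was near the lowest PBS library, at 529, and the groups did not overlap. The mean went from 572 ± 55.6 to 456 ± 35.7 FPKM, a ratio of 0.796, with a log2 change of −0.33 ± 0.08 (95% interval −0.50 to −0.15, limma adjusted p = 0.0090). Since its level was so high, this modest ratio was a larger drop in FPKM than any other member's change. The authors' deposited table gives 61426 and 45307 mean normalized counts, a fold of 0.738 (adjusted p = 0.000486).

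Grb10, Ndn and Gnas rose by small amounts. Grb10 was at 101, 108 and 99.0 FPKM in PBS replicates 1 to 3 and at 121, 120.5 and 124 in exosome replicates 1 to 3. Its spread within groups was small, and the mean rose from 103 ± 4.76 to 122 ± 2.17 FPKM (log2 change 0.24 ± 0.05, limma adjusted p = 0.00277). The authors' deposited table also calls Grb10 (fold 1.14, adjusted p = 0.00311).

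Ndn, which encodes necdin, a growth-restraining protein of the MAGE family, was at 10.5, 12.5 and 9.81 FPKM with PBS and at 13.7, 13.5 and 13 with exosomes, replicates 1 to 3. The exosome libraries were close together, and PBS replicate 2 came within 1 FPKM of them. The log2 change was 0.28 ± 0.08 (limma adjusted p = 0.0154). That call ended without exosome replicate 1 (adjusted p = 0.0543) and without PBS replicate 1 (0.0587), and the authors' deposited table does not call Ndn (fold 1.18, adjusted p = 0.113).

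Gnas was at 76.5, 79.3 and 75.1 FPKM in PBS replicates 1 to 3 and at 88.6, 84.1 and 89.8 in exosome replicates 1 to 3. The groups were apart by less than 5 FPKM at their nearest libraries, and the log2 change was 0.18 ± 0.04 (limma adjusted p = 0.00915). The authors' deposited table gives a fold of 1.07 and an adjusted p of 0.189, and so makes no call. Gnas is a locus of several promoters and transcripts. In GENCODE M21 8.83% of its exonic bases are shared with the antisense gene Nespas and 13.1% with Gm20721, both on the opposite strand. Its level is thus uncertain by what those genes may add.

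Igf2 varied within groups as much as between them. It was at 218, 297 and 189 FPKM in PBS replicates 1 to 3 and at 238, 270.0 and 305 in exosome replicates 1 to 3. PBS replicate 2 was above both the first and the second exosome library, so the groups overlapped. The means were 235 ± 55.9 and 271 ± 33.8 FPKM, and the log2 change of 0.22 ± 0.17 was not called (95% interval −0.17 to 0.61, limma adjusted p = 0.309). Without PBS replicate 2 the change was 0.41 ± 0.10 and passed (adjusted p = 0.0145), so 1 library decided this call. The authors' deposited table gives a fold of 1.08 (adjusted p = 0.843). In GENCODE M21 62.8% of the exonic bases of Igf2 are shared with the gene Gm49394 on the same strand, and the labels do not say how such reads were assigned.

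Peg3, a large zinc finger protein gene, was at 7.72, 6.77 and 8.97 FPKM in PBS replicates 1 to 3 and at 7.98, 7.66 and 6.92 in exosome replicates 1 to 3. The exosome libraries lay within the range of the PBS libraries. The log2 change was −0.04 ± 0.09 and not called (95% interval −0.25 to 0.16, limma adjusted p = 0.708). In the authors' deposited table Peg3 has a fold of 0.921 (adjusted p = 0.700).

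**Figure D3:**
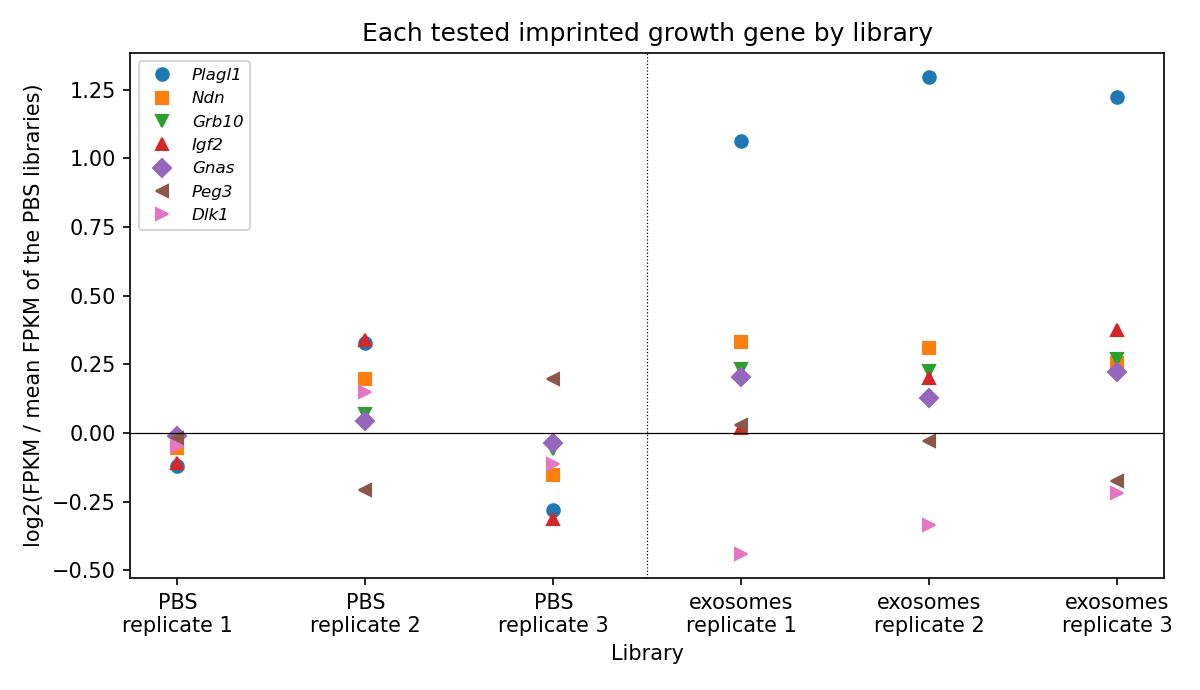
Each tested member in each library as log2 of its FPKM over the mean FPKM of the PBS libraries, 1 symbol per gene. In PBS replicate 2 every member but Peg3 lies above 0, with Igf2 at 297 FPKM and Plagl1 at 15.7, and in the exosome libraries Plagl1 stands apart at the top and Dlk1 is the lowest, near Peg3 in replicate 3.

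The PBS libraries themselves had a pattern in these genes. PBS replicate 2 was the highest of the 3 PBS libraries for 6 of the 7 tested members, the exception being Peg3, for which it was the lowest. It was the highest for 38.4% of all tested genes. PBS replicate 3 was the lowest of the 3 for 6 of the 7 members, against 43.1% of all tested genes. For Plagl1, Ndn, Grb10, Gnas and Igf2, PBS replicate 2 was therefore the PBS library nearest to the exosome mean, whereas for Dlk1 it was the farthest from it. Without it 6 members were called instead of 5, the sixth being Igf2, and the changes of Plagl1 and Dlk1 kept their direction and their calls.

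Neighbours within the imprinted domains were examined next, from a list of 44 genes grouped by the member they lie near. Many of them are imprinted only in placenta or brain. The list had 38 genes with a row, of which 16 were tested, 4 raised, 3 lowered and 9 not called, with a median log2 change of 0.07. This 43.8% share of calls equals that of all tested genes. Near Mest both tested neighbours rose, Copg2 as given above and Cep41, a centrosomal protein gene, from 2.02 ± 0.179 FPKM with PBS to 2.70 ± 0.181 with exosomes (0.29 ± 0.07 on the log2 scale, limma adjusted p = 0.0094). Near Dlk1 the only tested neighbour was Begain, a gene best known from synapses, which was at 6.26, 5.83 and 6.16 FPKM with PBS and 4.02, 4.05 and 4.04 with exosomes. It fell like Dlk1, and by more (log2 change −0.49 ± 0.05, adjusted p = 0.000139).

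Near Sgce, Pon3, a paraoxonase gene, rose from 4.48 ± 0.590 to 6.05 ± 0.604 FPKM (limma adjusted p = 0.00996), and Casd1, an enzyme of sialic acid acetylation, was at 19.7 ± 1.07 and 20.6 ± 0.209 FPKM and not called. Sgce was thus listed at 0 among neighbours of very different levels. Casd1 was near 20 FPKM, while Peg10 was at 0.00612 FPKM in PBS replicate 1 and at 0 in all other libraries. Calcr was at 0 throughout. Near Igf2 the most abundant neighbour was the tetraspanin gene Cd81, at 211 ± 14.3 and 229 ± 7.02 FPKM and not called (adjusted p = 0.12, and 0.0229 without PBS replicate 2). The other called neighbours, named after their values were seen, were Asb4 near Sgce (log2 change 0.31, adjusted p = 0.0219), Osbpl5 near Igf2 (−0.19, 0.048) and Atp10a near Ndn (−0.21, 0.0335). The list had 5 or 6 calls with any 1 library left out, against 7 with all. The domains of Plagl1, Grb10, Peg3 and Gnas had 0 tested neighbours. Phactr2, the only listed neighbour of Plagl1 and named after its values were seen, was too low to be tested. It was at 0.251 ± 0.017 FPKM with PBS and 0.375 ± 0.0345 with exosomes. The authors' deposited table calls Phactr2 raised (fold 1.5, adjusted p = 0.0118). Where neighbours passed the test, they went both ways in the list as a whole. Ndn itself was raised, a call that did not hold in every setting, while its neighbour Atp10a was lowered. The other tested neighbours of Ndn, which were Mkrn3, Snurf, Ube3a and Peg12, were not called.

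Of 29 other genes reported as imprinted, 16 were tested, of which 5 rose, 3 fell and 8 were not called (median log2 change 0.08, and 50% called against 43.8% of all tested genes). Those with the smallest p were Htr2a and Dcn. Htr2a, a serotonin receptor gene, fell from 2.06 ± 0.263 to 0.935 ± 0.0811 FPKM (log2 change −0.66 ± 0.08, limma adjusted p = 0.000242). Dcn, which encodes the matrix proteoglycan decorin, rose from 456 ± 62.7 to 698 ± 5.25 (0.62 ± 0.09, adjusted p = 0.000497). It was also 1 of the 11 fibroblast markers, of which 6 were raised and 3 lowered. Impact, an inhibitor of the amino acid sensor kinase Gcn2, fell from 36.4 ± 1.37 to 26.9 ± 2.33 FPKM (adjusted p = 0.0007), and Dhcr7, the last enzyme of cholesterol synthesis, rose from 15.8 ± 1.35 to 22.1 ± 1.78 (adjusted p = 0.00101). The receptor kinase gene Axl was at 94.3 ± 1.34 and 87.6 ± 4.86 FPKM (adjusted p = 0.101). Axl passed as lowered without exosome replicate 3 (adjusted p = 0.0461), with median ratio scaling (0.0325) and in the authors' deposited table (0.00774). The amino acid transporter gene Slc38a4 was at 58.0 ± 5.97 and 54.7 ± 1.74 (adjusted p = 0.394, and 0.0309 without PBS replicate 2).

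**Figure D4:**
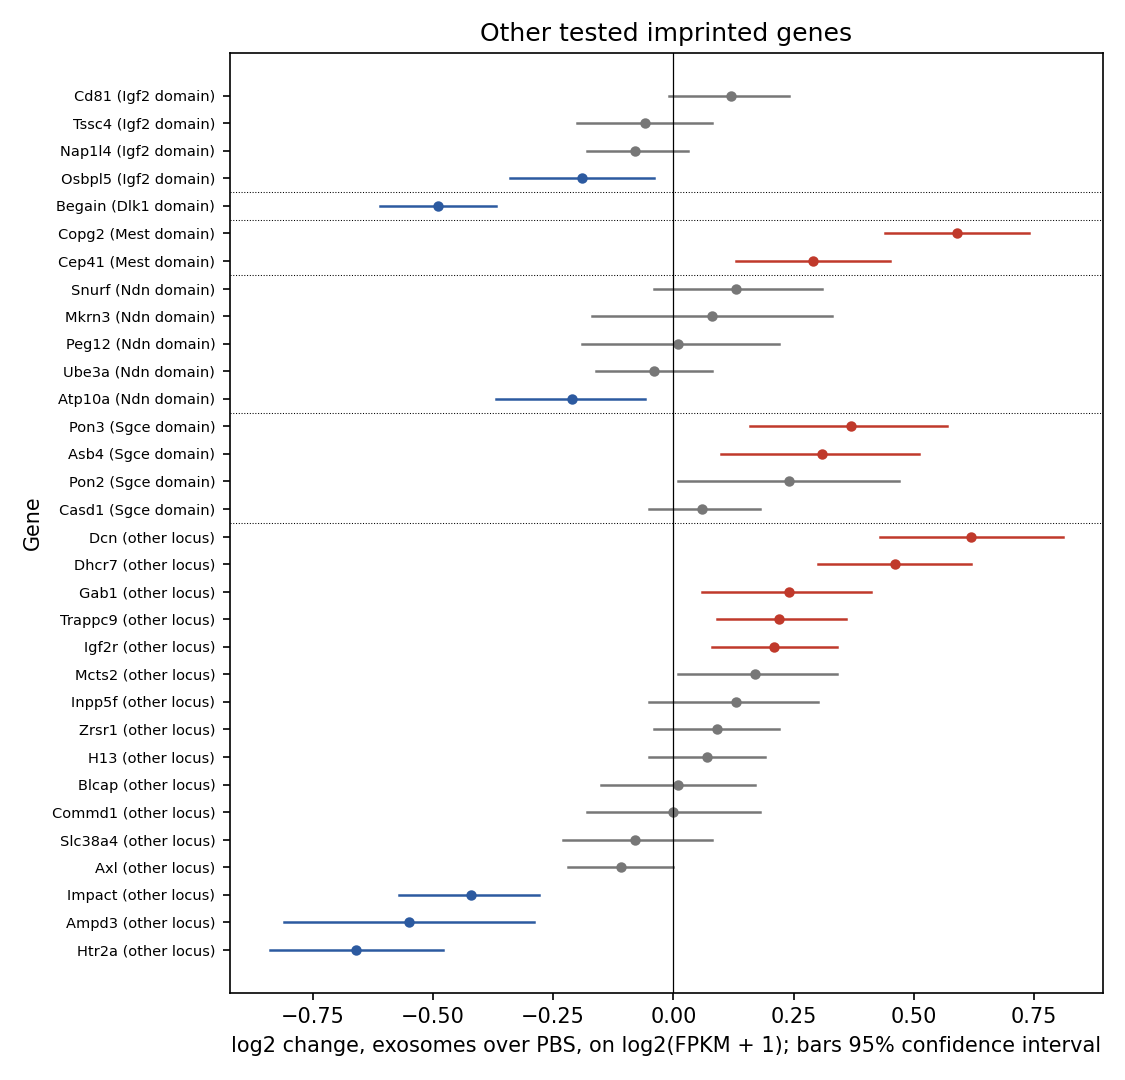
Log2 changes of the 32 tested genes of the 2 imprinted lists with 95% confidence intervals, grouped by the domain they lie in, red for raised, blue for lowered and grey for not called. Of the 32 genes 9 were raised and 6 lowered, with Dcn at 0.62 and Htr2a at −0.66 as the extremes.

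Around Igf2 and Grb10, the receptors and adaptors mostly did not pass. Of 15 genes 14 were tested, of which 1 rose, 3 fell and 10 were not called, or 28.6% called against 43.8% of all tested genes. Igf2r, the receptor that removes IGF2 to lysosomes and is itself imprinted, rose from 56.9 ± 3.46 FPKM with PBS to 65.9 ± 3.48 with exosomes (0.21 ± 0.06 on the log2 scale, limma adjusted p = 0.0146). That call ended without exosome replicate 2 (0.0544), exosome replicate 3 (0.0543) or PBS replicate 1 (0.0549) and is not in the authors' deposited table (0.0615). Igf2bp2 and Igf2bp1, RNA-binding proteins named for binding Igf2 mRNA, fell from 42.1 ± 1.74 to 36.5 ± 0.811 FPKM (limma adjusted p = 0.00736) and from 5.58 ± 0.438 to 4.59 ± 0.0184 (0.0137). Gigyf1, a partner of Grb10, fell by 0.16 on the log2 scale (limma adjusted p = 0.0309), a call lost without any single library other than PBS replicate 2, with adjusted p up to 0.117. The adaptor genes Shc1, at 51.4 ± 3.29 and 48.2 ± 1.69 FPKM, and Grb14, at 30.7 ± 2.03 and 31.6 ± 0.357, were not called, while the authors' deposited table calls Shc1 lowered (fold 0.879, adjusted p = 0.00952). The list fell to 2 calls without exosome replicate 2, exosome replicate 3 or PBS replicate 1.

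Around Gnas, the cyclic AMP pathway showed 2 calls among 15 tested genes of 25, both lowered (13.3% called, against 43.8% of all tested genes). They were the genes of the type II regulatory subunits of protein kinase A. Prkar2a was at 15.1, 14.6 and 14.7 FPKM with PBS and at 10.8, 10.4 and 11.2 with exosomes (log2 change −0.42 ± 0.05, limma adjusted p = 0.000179). Prkar2b was at 46.6, 39.6 and 51.4 FPKM with PBS and at 32.0, 31.0 and 27.3 with exosomes (−0.59 ± 0.09, adjusted p = 0.00139). In both genes the groups were clearly apart. The type I subunit gene Prkar1a was at 117 ± 3.44 and 123 ± 3.50 FPKM (adjusted p = 0.226). Gnai2, an inhibitory G protein subunit gene, was at 98.7 ± 4.65 and 108 ± 1.47 FPKM (adjusted p = 0.0532, and 0.0195 without PBS replicate 2). Adcy7, an adenylyl cyclase gene named after its values were seen, was too low to be tested. It was at 0.122 ± 0.0205 FPKM with PBS and 0.335 ± 0.0539 with exosomes. The authors' deposited table calls Adcy7 raised (fold 2.28, adjusted p = 0.000146).

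Among 14 genes of the sarcoglycan and dystrophin complex, in which Sgce takes part, 8 were tested, 2 raised and 6 not called. This was 25% called, against 43.8% of all tested genes. Sgcb, beta-sarcoglycan, rose from 12.9 ± 0.688 FPKM with PBS to 17.6 ± 0.249 with exosomes (0.42 ± 0.05 on the log2 scale, limma adjusted p = 0.000236). Sspn, sarcospan, rose from 2.34 ± 0.509 to 3.19 ± 0.304 FPKM (adjusted p = 0.0286), a call that ended without exosome replicate 1 (0.0585), exosome replicate 3 (0.0989), PBS replicate 1 (0.0893) or PBS replicate 3 (0.0783), which leaves 1 call in the list. Dag1, dystroglycan, at 51.2 ± 2.16 and 48.2 ± 2.41 FPKM, and the syntrophin gene Sntb2, at 17.1 ± 0.555 and 15.9 ± 1.24, were not called, while the authors' deposited table calls Dag1 lowered (adjusted p = 0.0324).

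A further list held relatives of the members and also Zfp568, a repressor of an Igf2 transcript, in 8 symbols of which 7 had a row. Of its 6 tested genes 4 rose, 0 fell and 2 were not called (66.7% called, against 43.8% of all tested genes, of which 25.4% were raised). That difference was not tested. Maged2 and Maged1, of the family of necdin, rose from 29.7 ± 2.74 to 41.0 ± 1.16 FPKM (limma adjusted p = 0.000511) and from 214 ± 1.23 to 253 ± 6.71 (0.00195). Plag1, a zinc finger factor close to Plagl1, was higher with exosomes as well, at 4.99 ± 0.305 FPKM against 3.58 ± 0.238 (0.39 ± 0.07 on the log2 scale, adjusted p = 0.00149). Its other relative Plagl2 was at 6.37 ± 0.403 and 5.81 ± 0.0355 and not called (adjusted p = 0.145), whereas the authors' deposited table calls it lowered (0.0364). Zfp568, a repressor of a placental Igf2 transcript, rose from 2.30 ± 0.128 to 3.07 ± 0.0881 FPKM (adjusted p = 0.00401). The MAGE family gene Ndnl2 was at 12.9 ± 0.571 and 14 ± 0.221 FPKM (adjusted p = 0.0995).

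Of 18 genes that maintain or read imprinting marks 15 were tested, of which 3 rose, 2 fell and 10 were not called. The share called was 33.3%, against 43.8% of all tested genes, and the median log2 change 0.05. The maintenance DNA methyltransferase gene Dnmt1 fell from 18.3 ± 1.07 to 13.2 ± 0.464 FPKM (log2 change −0.45 ± 0.05, limma adjusted p = 0.000246), and Uhrf1, which brings it to newly replicated DNA, from 20.1 ± 2.31 to 15.3 ± 1.51 (−0.38 ± 0.09, adjusted p = 0.00764). The de novo methyltransferase gene Dnmt3a went the other way, from 3.68 ± 0.153 to 4.65 ± 0.233 FPKM (0.27 ± 0.06, adjusted p = 0.00615). Arid4a, a chromatin regulator, rose by 0.19 on the log2 scale (adjusted p = 0.0218), a call that ended without exosome replicate 2 (0.0737) or PBS replicate 1 (0.0645), each of which leaves 3 calls in the list. Trim28, the corepressor bound to imprinting control regions, was at 105 to 107 FPKM with PBS and 97.5 to 102 with exosomes (adjusted p = 0.117). It passed as lowered with median ratio scaling (0.0327) and in the authors' deposited table (0.0122). The insulator protein gene Ctcf was at 17.5 ± 0.126 and 17.2 ± 0.783 (adjusted p = 0.678). DNA methylation was not measured.

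Among the other members and the 32 further imprinted genes, the pattern over the 6 libraries most like that of Plagl1 was that of Copg2 (Pearson r = 0.997 of log2(FPKM + 1)). For Igf2 it was Igf2r (0.836), for Dlk1 Osbpl5 (0.978), for Peg3 Ube3a (0.955), for Grb10 and Ndn Dcn (0.991 and 0.963) and for Gnas Grb10 (0.971). These are descriptions over 6 libraries in 2 groups, in which any pair of genes that differ between the groups correlates, and the best of 38 candidates was taken each time. Peg3, Ube3a and Igf2 were not called. For deviations from the group means, r of the same pairs ran from 0.766 (Gnas with Grb10) to 0.979 (Peg3 with Ube3a, and Ndn with Dcn).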

How the data were processed

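RNA-seq of 6 NIH3T3 libraries was used, 3 per group by sample title. The mm9 build and, with no versions or roles, the authors' use of DESeq, HTSeq, Cufflinks, HISAT2, StringTie, Trimmomatic, SAMtools and Bowtie2 are per the submitters' processing notes. Per library the authors deposited expression values read here as FPKM, inferred from Cufflinks and from unequal column sums, since the headers say only expression. The authors also deposited group means of normalized counts (a signal scaled by size factors), a linear fold change (ratio) and the raw and adjusted p-value, per the file headers.

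Each column was tied to its library by number, and 0 library pairs held the same values. All 27 gene names turned into dates were repaired by Entrez identifier. Reads behind 1 step of the deposited means (100% of 2362 PBS and 2441 exosome genes with a mean under 3 were whole steps, tolerance 2e-05) gave the depths, and for Mest the reads per library (tolerance 1e-06, 1 solution per group). Intervals and reads cover counting or library spread only.

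Limma 3.58.1 in R 4.3.3 was fitted to log2(FPKM + 1) over 10274 genes with group as the only term (trend, robust, two-sided) and tested on simulated data. Named from each list were the 4 called genes of smallest adjusted p and the 2 uncalled genes of highest mean. Members and lists were chosen with earlier results of these data known. The alternatives were other pseudocounts, filters, scalings and variance settings, a replicate block, each library left out and the authors' table.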

Additional observations from a re-analysis of the deposited data

How the results depend on the processing

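Of 105 values of the 7 tested members under alternatives, 98 kept their direction and their side of the threshold. The exceptions given above were Igf2 without PBS replicate 2, Ndn in 3 settings and Gnas in the authors' deposited table. Peg3, which was not called, changed sign without exosome replicate 3 (0.01) and without PBS replicate 3 (0.05), in a range of −0.13 to 0.05 with 1 library left out. So did 2 other uncalled genes, Grb14 without PBS replicate 2 and in the authors' deposited table (−0.01 in each, with a range of −0.01 to 0.09 over libraries left out) and Ctcf without exosome replicate 3 (0.01, range −0.05 to 0.01). The cause was not tested. The number of called members was 4 to 6 with 1 library left out, 6 without the filter on low values, which admits Mest, and 4 in the authors' deposited table, which also admits it and calls 25.9% of its 15844 tested genes. Over all genes the calls ranged from 3417 to 4433 with 1 library left out. The authors' deposited table has 1966 raised and 2140 lowered genes, against 2612 and 1889 here and 2250 and 2276 with median ratio scaling of the FPKM values. Replicate numbers are shared by the groups, but same-numbered libraries did not deviate together (correlations across genes of −0.12, −0.02 and −0.29 for replicates 1 to 3), so the numbers were not taken to pair them. With a replicate block 3914 genes were called, 5 of them members, and calls over the 7 lists around the members went from 31 to 24, with the neighbours going from 7 to 5 and the other imprinted genes from 8 to 7. Among the genes named by rule, the calls that ended were those of Gigyf1 (0.0682), Sspn (0.0513) and Arid4a (0.0543). Sspn was likewise not called when low values were kept (0.0752) or in the authors' deposited table (0.0828). Mest had only 9 to 51 reads per library.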

Other observations

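For 1 imprinted gene, Snurf, the deposited measures differed. It was at 2.56 ± 0.251 FPKM with PBS and 2.90 ± 0.248 with exosomes, while the authors' deposited mean normalized count was 0 in both groups. Snurf and Snrpn share a transcript, and the labels do not say how reads common to them were assigned. Sgce was listed at 0 in both measures.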
